A study of Mus musculus with 14 samples.

Results

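The genes described here are 9 that are commonly read as signs of cell cycle arrest and senescence: the cyclin-dependent kinase (CDK) inhibitors *Cdkn1a*, *Cdkn1b*, *Cdkn2a*, *Cdkn2b* and *Cdkn2d*, the p53 genes *Trp53* and *Mdm2*, the lamin gene *Lmnb1*, and *Glb1*, which encodes the lysosomal beta-galactosidase used as a senescence stain. They were given by symbol, with no threshold on their values, and all 9 were found among the 49315 genes of the count table. Their messenger RNA was measured by RNA sequencing in 14 cultures of primary microglia, 7 of TIMP2 KO and 7 of WT genotype. Microglia are the macrophages that reside in brain tissue. TIMP2, tissue inhibitor of metalloproteinases 2, is a secreted regulator of the extracellular matrix, and the KO mice lacked it in all tissues rather than in microglia alone. Both genotypes were C57BL/6, aged P6-P7 and of both sexes. Each library came from its own pool of forebrains of 5 pups, from which CD11b-positive cells were isolated and kept in culture with no further treatment, so the cells were neonatal and not aged, and a library does not represent 1 animal.

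Progress through the cell cycle depends on CDKs, which phosphorylate the retinoblastoma protein and so release E2F factors. The Cip/Kip inhibitors p21 (*Cdkn1a*) and p27 (*Cdkn1b*) bind cyclin-CDK complexes, and the INK4 inhibitors p16 (*Cdkn2a*), p15 (*Cdkn2b*) and p19INK4d (*Cdkn2d*) bind the cyclin D partners CDK4 and CDK6. The transcription factor p53 (*Trp53*) switches on p21 and its own ubiquitin ligase MDM2, while ARF, a different protein made from the *Cdkn2a* locus, holds MDM2 back. Senescent cells are known for lasting arrest with raised p16 or p21, loss of lamin B1 from the nuclear envelope, more lysosomal beta-galactosidase and a secreted mix of cytokines, proteases and growth factors, and a senescent microglial state is discussed in the ageing brain.

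The libraries held between 38875344 and 45623039 counted reads in KO and between 41538291 and 48070236 in WT, and no pair of libraries was as alike as sampling noise allows. The targeted gene *Timp2* was at 122 ± 3.14 CPM (counts scaled by library size, so that each library sums to the same total) in KO (SD, n = 7) and at 464 ± 36.8 CPM in WT (SD, n = 7), and each KO library lay below each WT library. Of the microglia markers, *Csf1r*, the receptor for colony-stimulating factor, was at 2240 to 3320 CPM over the 14 libraries, *Cx3cr1*, the fractalkine receptor, at 580 to 1330 CPM and *Trem2* at 886 to 1080 CPM, while *P2ry12* (26.1 to 54.1 CPM), *Siglech* (1.99 to 5.86 CPM) and *Tmem119* (1.84 to 6.27 CPM) were low. Of the other cell types checked, border macrophage markers summed to 447 to 877 CPM over the 14 libraries, oligodendrocyte lineage markers to 148 to 210 CPM, and markers of neurons, endothelium, mural cells and fibroblasts, and other leukocytes to at most 65.8 CPM in any library. The highest means were 438 CPM for *Mrc1* and 138 CPM for *Ms4a7* (border macrophages), and 71.6 CPM for *Cnp* and 62.6 CPM for *Mbp* (oligodendrocyte lineage). The mean was under 1 CPM for 4 of 8 border macrophage markers and for 3 of 12 oligodendrocyte lineage markers. Astrocyte markers summed to 37.3 to 192 CPM in KO and to 43.5 to 353 CPM in WT, and all 13 of those tested had a log2 fold change below 0. So did 11 of 13 neuron, 8 of 10 oligodendrocyte lineage and 7 of 8 mural and fibroblast markers. Above 0 lay 14 of 16 microglia, 6 of 7 border macrophage, 4 of 6 endothelial and 4 of 4 other leukocyte markers. In bulk RNA, fewer cells of a type and less RNA per cell cannot be told apart.

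To ask whether the arrest genes differ when TIMP2 is absent, KO was compared with WT gene by gene in edgeR's quasi-likelihood test across the 15700 genes with enough counts, and all 9 genes passed that filter. None of the 9 was called at an adjusted p under 0.05, where 3 of all tested genes were (0.0191%), and none of the 9 had an unadjusted p under 0.05, where 529 of all tested genes did (3.37%), 274 of them higher in KO (1.75%) and 255 lower (1.62%). DESeq2, which called 16 of 24524 genes (0.0652%), limma-voom, which called 3 of the 15700 (0.0191%), and the fits with other scalings or covariates also called 0 of the 9 and gave 0 of the 9 at an unadjusted p under 0.05. The 9 log2 fold changes lay between −0.14 for *Lmnb1* and 0.014 for *Trp53* and *Mdm2*, 5 above 0 and 4 below, with a median of 0.0059 beside 0.0016 over all tested genes. The KO and WT libraries overlapped for each of the 9, while they did not overlap for 13 of all tested genes (0.0828%).

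**Figure D1:**
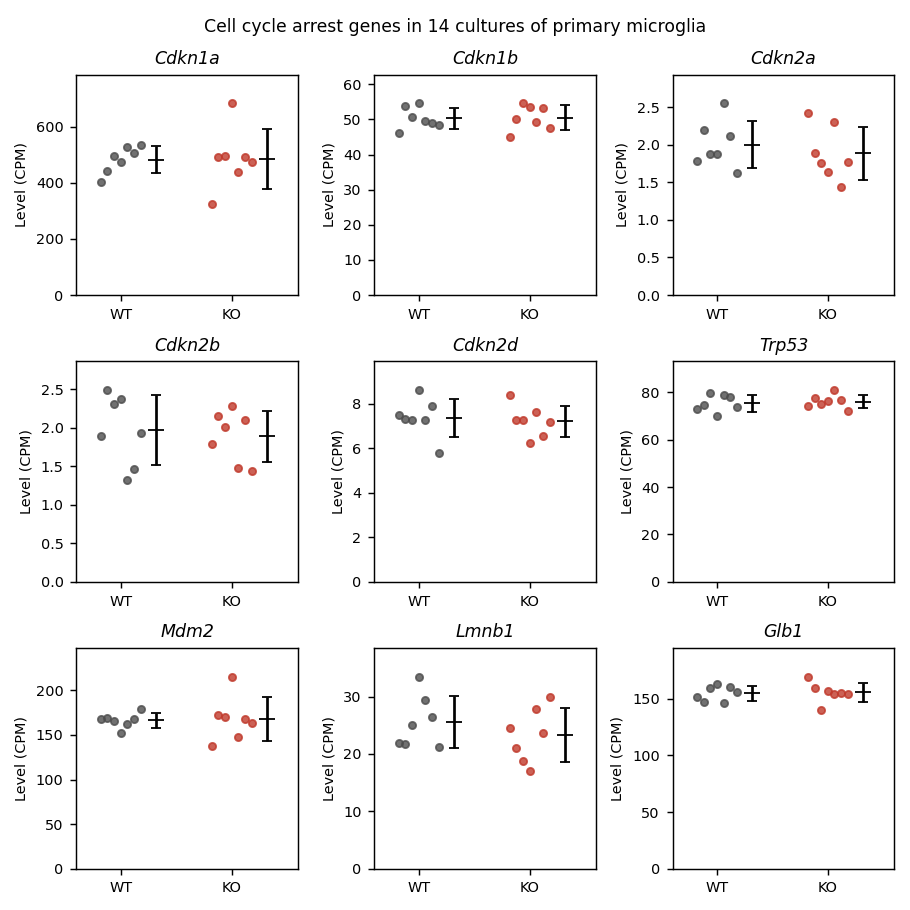
Level of each of the 9 genes in CPM (vertical axes, from 0) in the 7 WT libraries (grey) and the 7 KO libraries (red), 1 point per library, with the mean and SD as bars. The 2 genotypes overlap in all 9 panels, and the widest KO spread is that of *Cdkn1a*, from 323 to 683 CPM.

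The 3 genes of the p53 arm stood at similar means in both genotypes. *Trp53* (ENSMUSG00000059552, forward strand of chromosome 11 of GRCm38, 69580359 to 69591873) was between 72.1 and 80.9 CPM in KO, with a median of 76.2, and between 69.9 and 79.7 CPM in WT, with a median of 74.6. It was the steadiest of the 9, since the highest library was 1.16 times the lowest. Its log2 fold change was 0.014 (standard error 0.0329, 95% interval −0.056 to 0.084, adjusted p = 0.970), which bounds the difference of KO from WT between −3.83% and 6.00% of the WT level.

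*Mdm2* (ENSMUSG00000020184, reverse strand of chromosome 10, 117688875 to 117710758), the ligase that marks p53 for degradation, was between 138 and 215 CPM in KO, with a median of 168. In WT it was between 152 and 179 CPM, also with a median of 168. The KO libraries thus lay on both sides of the WT libraries, with 2 of them below and 1 above all of WT. The log2 fold change was 0.014 (standard error 0.0751, 95% interval −0.15 to 0.17, adjusted p = 0.986).

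*Cdkn1a* (ENSMUSG00000023067, forward strand of chromosome 17, 29090976 to 29100727), which encodes p21, was between 323 and 683 CPM in KO, with a median of 490, and between 402 and 535 CPM in WT, with a median of 494. The mean was 485 ± 106 CPM in KO and 483 ± 47.6 CPM in WT (SD, n = 7 each). KO replicate 1 was the lowest and KO replicate 4 the highest of the 14 libraries, and the same libraries were the lowest and the highest for *Mdm2*. The log2 fold change of *Cdkn1a* was 0.0074 (standard error 0.119, 95% interval −0.25 to 0.26, adjusted p = 0.994), which spans −15.8% to 19.9% of the WT level. The 36 listed p53 target genes, other than members, summed to 1450 CPM in KO replicate 1 and to 2060 CPM in KO replicate 4. In the other 12 libraries the sum was between 1570 and 1720 CPM. Without KO replicates 1 and 4, the log2 fold change was −0.016 for *Cdkn1a* and −0.018 for *Mdm2*. Of the exon bases of *Cdkn1a*, 7.68% are shared with AC167363.2, annotated on the other strand, and the strand setting of the counting is not given in the sources used here.

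Printed below are the 250 bases before the outer of the annotated *Cdkn1a* starts and before the *Mdm2* start. They are shown because p53 is known to act on both genes, which had their extremes in the same libraries. Whether p53 acts within these windows, or had a part in those extremes, was not tested. The sequences are from RefSeq (GRCm38.p6), read 5′ to 3′ on the strand of the gene, and capitals mark matches to a 10-base p53 motif, which reads the same on both strands. This motif is only a part of a full p53 recognition site, so a single match is not such a site.
*Cdkn1a*, chr17:29090729-29090978, forward strand: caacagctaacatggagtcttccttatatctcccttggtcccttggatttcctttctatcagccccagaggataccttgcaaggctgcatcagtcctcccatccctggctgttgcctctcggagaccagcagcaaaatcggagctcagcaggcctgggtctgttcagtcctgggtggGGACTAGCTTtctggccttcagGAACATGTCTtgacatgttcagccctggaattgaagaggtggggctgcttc
*Mdm2*, chr10:117710759-117711008, reverse strand: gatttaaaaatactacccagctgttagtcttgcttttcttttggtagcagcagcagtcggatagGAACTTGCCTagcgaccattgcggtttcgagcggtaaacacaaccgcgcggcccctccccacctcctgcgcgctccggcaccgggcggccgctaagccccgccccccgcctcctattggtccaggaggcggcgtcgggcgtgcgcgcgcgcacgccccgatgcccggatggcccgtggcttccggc
The printed *Cdkn1a* window holds 2 matches, 73 and 51 bases before the start, and the *Mdm2* window holds 1, at 186 bases before it. The window before the other *Cdkn1a* start, chr17:29093519-29093768, which is not printed, holds 0 matches. Windows were found for 8 of the 9 genes, and the motif was also matched before *Trp53* (75 bases) and *Cdkn2d* (102 bases). It was matched in 7.13% of the 32851 windows of this length in the table, and a match describes the letters of a window and not binding.

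*Cdkn1b* (ENSMUSG00000003031, forward strand of chromosome 6, 134920401 to 134925513) encodes p27, which holds cells in a resting state. Its level was between 44.9 and 54.6 CPM in KO, with a median of 50.1, and between 46.0 and 54.6 CPM in WT, with a median of 49.6. The log2 fold change was 0.0059 (standard error 0.0479, 95% interval −0.096 to 0.11, adjusted p = 0.990). The highest library was 1.21 times the lowest, against 2.11 times for *Cdkn1a*, so the 2 Cip/Kip inhibitors differed in their spread over the 14 libraries. The extremes of *Cdkn1a* were KO replicates 1 and 4, and in WT *Cdkn1a* was between 402 and 535 CPM.

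The INK4 inhibitors were the lowest of the 9 in both genotypes. *Cdkn2a* (ENSMUSG00000044303, reverse strand of chromosome 4, 89274471 to 89294653) was between 1.44 and 2.42 CPM in KO, with a median of 1.77, and between 1.62 and 2.55 CPM in WT, with a median of 1.88. These levels rest on 62 to 116 reads per library. The log2 fold change was −0.085 (standard error 0.135, 95% interval −0.37 to 0.20, adjusted p = 0.956). The interval spans −22.8% to 15.1% of the WT level.

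The annotation gives *Cdkn2a* 2 transcripts with separate starts 12427 bases apart, of which the outer makes ARF and the inner p16, and the deposited count adds the reads of both. The count therefore does not tell which of these products the cells transcribed. The windows before both starts are shown, from RefSeq (GRCm38.p6), on the reverse strand, with a match to the E2F motif TTTCCCGC in capitals.
*Cdkn2a*, ARF start, chr4:89294620-89294869: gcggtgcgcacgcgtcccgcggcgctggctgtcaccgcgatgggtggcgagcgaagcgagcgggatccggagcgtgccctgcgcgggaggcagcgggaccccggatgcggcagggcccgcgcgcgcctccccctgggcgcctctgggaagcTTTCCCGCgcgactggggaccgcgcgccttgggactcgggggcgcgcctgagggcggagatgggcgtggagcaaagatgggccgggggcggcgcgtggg
*Cdkn2a*, p16 start, chr4:89282193-89282442: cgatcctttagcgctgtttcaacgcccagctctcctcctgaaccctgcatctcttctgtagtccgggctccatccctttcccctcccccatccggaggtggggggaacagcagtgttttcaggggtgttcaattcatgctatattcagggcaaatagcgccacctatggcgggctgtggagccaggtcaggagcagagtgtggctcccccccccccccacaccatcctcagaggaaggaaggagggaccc
The motif, searched on both strands, was matched 99 bases before the ARF start and not in the p16 window. It was matched in 0.895% of all windows.

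*Cdkn2b* (ENSMUSG00000073802, reverse strand of chromosome 4, 89306299 to 89311039), which encodes p15 and neighbours *Cdkn2a*, was between 1.44 and 2.28 CPM in KO, with a median of 2.01. In WT it was between 1.32 and 2.49 CPM, with a median of 1.94. Each KO library lay within the WT range, and the log2 fold change was −0.056 (standard error 0.161, 95% interval −0.40 to 0.29, adjusted p = 0.974) on 57 to 112 reads per library. *Cdkn2d* (ENSMUSG00000096472, reverse strand of chromosome 9, 21288410 to 21291407) was between 6.24 and 8.37 CPM in KO, with a median of 7.25, and between 5.79 and 8.60 CPM in WT, with a median of 7.30. Each of its KO libraries also lay within the WT range. Its log2 fold change was −0.032 (standard error 0.0841, 95% interval −0.21 to 0.15, adjusted p = 0.973).

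*Glb1* (ENSMUSG00000045594, forward strand of chromosome 9, 114401076 to 114474898) encodes the acid beta-galactosidase that splits galactose from gangliosides in lysosomes. It was between 140 and 169 CPM in KO, with a median of 155, and between 146 and 163 CPM in WT, with a median of 156. Its log2 fold change was 0.0085 (standard error 0.0375, 95% interval −0.072 to 0.089, adjusted p = 0.984), and the interval spans −4.84% to 6.34% of the WT level. The gene shares 5.49% of its exon bases with *Tmppe* on the same strand. The window before the *Glb1* start (RefSeq, GRCm38.p6) is shown because it holds CACGTG, in capitals, the core of the motif that the lysosomal gene factors TFEB and TFE3 are known to bind, which reads the same on both strands.
*Glb1*, chr9:114400828-114401077, forward strand: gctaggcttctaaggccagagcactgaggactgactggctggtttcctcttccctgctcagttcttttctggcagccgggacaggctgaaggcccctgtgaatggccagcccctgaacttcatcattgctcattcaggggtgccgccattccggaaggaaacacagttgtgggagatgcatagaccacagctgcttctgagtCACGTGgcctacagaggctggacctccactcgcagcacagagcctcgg
The match lies 48 bases before the start, and 6.02% of all windows hold one.

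*Lmnb1* (ENSMUSG00000024590, forward strand of chromosome 18, 56707813 to 56753424) encodes lamin B1, a protein of the nuclear lamina that is lost in senescent cells. It had the largest difference between the means of the 9 genes. It was between 17.0 and 30.0 CPM in KO, with a median of 23.6, and between 21.2 and 33.4 CPM in WT, with a median of 25.1. In KO, 3 libraries lay below all of WT, and the other 4 lay within its range. The mean was 23.2 ± 4.74 CPM in KO and 25.6 ± 4.56 CPM in WT (SD, n = 7 each), and the log2 fold change was −0.14 (standard error 0.133, 95% interval −0.43 to 0.14, adjusted p = 0.943), a difference smaller than the spread between libraries of a genotype. The interval spans −25.6% to 10.4% of the WT level.

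**Figure D2:**
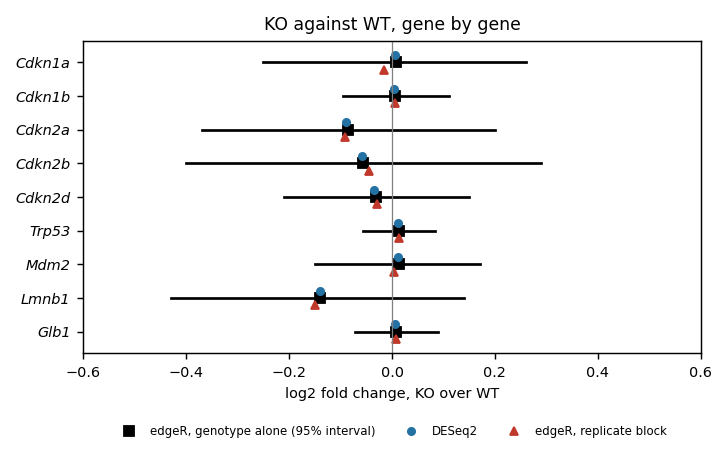
Log2 fold change of KO over WT for the 9 genes from edgeR (black squares, with 95% intervals), DESeq2 (blue) and edgeR with the replicate number as a block (red). The line at 0 lies inside all 9 edgeR intervals, the narrowest for *Trp53* (−0.056 to 0.084) and the widest for *Cdkn2b* (−0.40 to 0.29).

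To rank the 9 genes against each other, CPM were divided by the length of the merged exons, since a longer transcript yields more reads. *Cdkn1a* was highest, at 136 ± 22.3 CPM per kb (SD, n = 14 libraries of both genotypes), above 97.9% of the tested genes. *Glb1* followed at 51.5 ± 2.45 and *Mdm2* at 32.9 ± 3.45 CPM per kb, above 94.5% and 90.7% of the tested genes. *Trp53* stood at 18.7 ± 0.767, *Cdkn1b* at 11.1 ± 0.694 and *Lmnb1* at 8.25 ± 1.56 CPM per kb, in the upper part of the tested genes. The INK4 genes came last, with *Cdkn2d* at 4.63 ± 0.475, *Cdkn2a* at 1.66 ± 0.278 and *Cdkn2b* at 1.39 ± 0.276 CPM per kb, the last of them above 36.2% of the tested genes.

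Each neighbouring pair in this order kept its order in 14 of 14 libraries, with the exception of *Cdkn2a* and *Cdkn2b*, where *Cdkn2a* was higher in 9 of 14. The mean ratio between neighbours was 1.34 for *Cdkn1b* over *Lmnb1*, the closest of the pairs that kept their order, and 1.19 for *Cdkn2a* over *Cdkn2b*, which were not separated beyond their spread. The largest step was the 2.79-fold one from *Cdkn2d* to *Cdkn2a*. Per length, *Cdkn1a* was 82.1 times *Cdkn2a*, with a range of 43.9 to 137 over the libraries, so that p21 and not the *Cdkn2a* products made up most of the messenger RNA of the 5 inhibitors in both genotypes. Within the p53 arm, *Mdm2* was 1.76 times *Trp53* (1.46 to 2.25). These ratios treat all annotated exons of a gene as used, which was not tested.

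**Figure D3:**
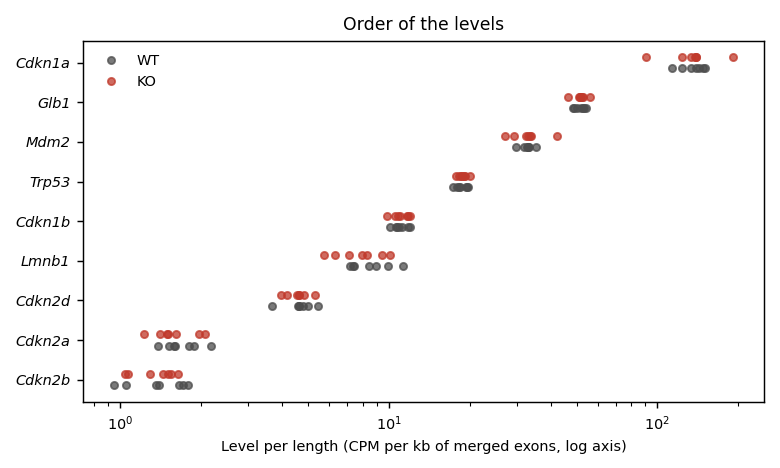
Level per length of the 9 genes (horizontal axis, CPM per kb of merged exons, log axis) in 7 WT (grey) and 7 KO (red) libraries, 1 point per library. The genes fall in steps from *Cdkn1a* at 90.9 to 192 down to *Cdkn2b* at 0.948 to 1.79, and only *Cdkn2a* and *Cdkn2b* change order between libraries.

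The cultures differed among themselves, so the covariation of the 9 genes was examined on log2 CPM with the mean of each genotype removed, for the 36 pairs of these genes and for each gene with the summed proliferation genes and the summed astrocyte markers, 54 relations in all. P-values are from 100000 two-sided permutations within genotype, for which the smallest possible p is 1e-05, and were adjusted by Benjamini-Hochberg over the 54. The pairs showed no common direction, with 16 of 36 correlations above 0, a median of −0.098 and a range from −0.75 to 0.84. Of the 54 relations, 2 passed an adjusted p of 0.05.

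*Lmnb1* followed proliferation. Its level rose with the sum of 33 proliferation genes, which was between 646 and 1260 CPM in KO and between 837 and 1160 CPM in WT (Pearson r = 0.94, permutation p = 1e-05, the smallest possible, adjusted p = 0.00054; Spearman rho = 0.94, p = 2e-05, adjusted p = 0.00108). The correlation was 0.98 within KO and 0.94 within WT, and 0.95 without KO replicate 4 and WT replicate 4, the libraries farthest from the median of *Lmnb1*. KO replicate 4 had both the lowest *Lmnb1* (17.0 CPM) and the lowest proliferation sum (646 CPM). With the proliferation level as a covariate, *Lmnb1* had a log2 fold change of −0.056 in place of −0.14.

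The other relation past the threshold was an inverse one between *Cdkn2d* and *Mdm2* (r = −0.75, permutation p = 0.00075, adjusted p = 0.0202), which was −0.89 within KO and −0.85 within WT and −0.83 without WT replicates 4 and 7. By rank it did not pass (Spearman rho = −0.52, p = 0.0645, adjusted p = 0.348). It also missed the threshold without KO replicate 4 (r = −0.74, adjusted p = 0.0532), without KO replicate 5 (−0.75, 0.058) or without WT replicate 7 (−0.83, 0.0737).

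*Mdm2* and *Lmnb1* were also inversely related (r = −0.71, permutation p = 0.0056, adjusted p = 0.0794; Spearman rho = −0.86, p = 0.00044, adjusted p = 0.0119), so that the relation passed by rank alone. It was −0.79 without KO replicates 1 and 4, and passed without KO replicate 1 (r = −0.79, adjusted p = 0.00918) or KO replicate 7 (−0.78, 0.0227). Without KO replicate 4 it was −0.61 (adjusted p = 0.259), and without KO replicate 5 −0.68 (0.209). *Mdm2* with the proliferation sum, chosen here after its values were seen, had the same form (r = −0.71, permutation p = 0.0152, adjusted p = 0.118). By rank it passed (Spearman rho = −0.85, p = 0.00132, adjusted p = 0.0238), and r was −0.75 without KO replicates 1 and 4. By r it passed without KO replicate 1 (−0.77, adjusted p = 0.0124), but was −0.61 without KO replicate 4 (0.342).

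*Cdkn1a* and *Mdm2*, also chosen after their values were seen, had the highest r of the pairs of members, 0.84, which did not pass (permutation p = 0.00766, adjusted p = 0.0794; Spearman rho = 0.60, p = 0.0317, adjusted p = 0.245). Without KO replicates 1 and 4 the correlation was 0.35, so the relation rests on those libraries. It passed without WT replicate 1 (r = 0.90, adjusted p = 0.043), and was 0.69 without KO replicate 4 (adjusted p = 0.259). It was 0.96 within KO and 0.14 within WT, a difference that was not tested. *Cdkn1a* with *Cdkn2d* did not pass (r = −0.65, permutation p = 0.00882, adjusted p = 0.0794), and was −0.42 without KO replicates 1 and 4. Nor did *Cdkn2b* with the proliferation sum pass (r = −0.64, permutation p = 0.00859, adjusted p = 0.0794), which was −0.69 without WT replicates 5 and 6. *Cdkn1a* with the proliferation sum did not pass (r = −0.38, permutation p = 0.306, adjusted p = 0.551; Spearman rho = −0.27, p = 0.372, adjusted p = 0.62; −0.054 without KO replicates 1 and 4). *Glb1* and the astrocyte markers had r = 0.58 (permutation p = 0.0324, adjusted p = 0.18; Spearman rho = 0.59, p = 0.0399, adjusted p = 0.269; 0.65 without KO replicates 1 and 3).

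**Figure D4:**
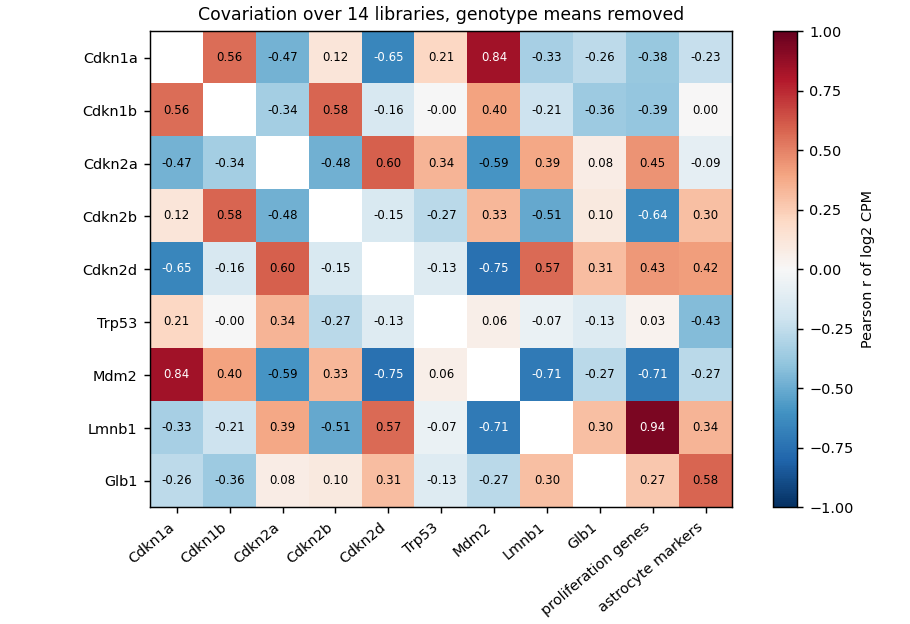
Pearson correlation over 14 libraries (genotype means removed) between the 9 genes, and of each with the summed proliferation genes and astrocyte markers, red above 0 and blue below. The darkest cells are *Lmnb1* with proliferation (0.94), *Cdkn1a* with *Mdm2* (0.84) and *Cdkn2d* with *Mdm2* (−0.75).

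**Figure D5:**
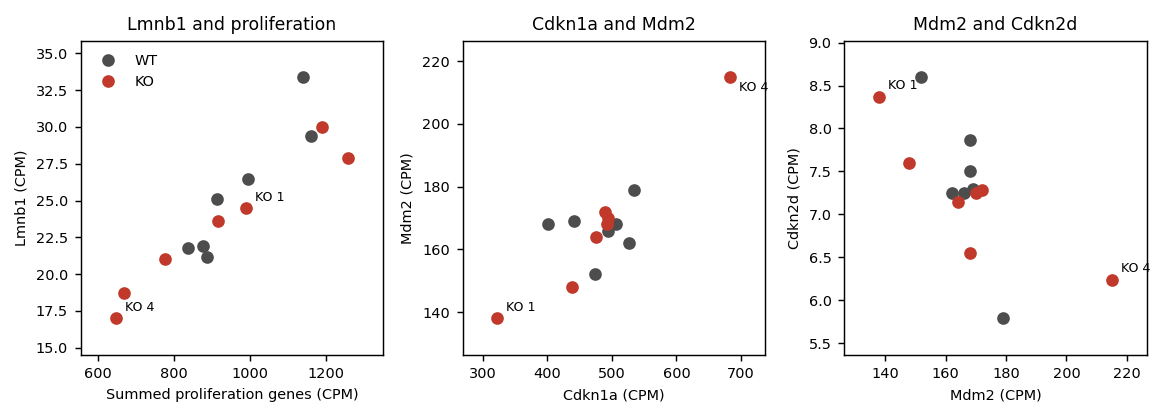
The 3 relations in CPM, with WT in grey and KO in red, 1 point per library: *Lmnb1* against the proliferation sum, *Mdm2* against *Cdkn1a*, and *Cdkn2d* against *Mdm2*. In the first the points form a band across both genotypes, while in the second KO replicates 1 and 4 sit apart at the ends, at 323 and 683 CPM of *Cdkn1a*.

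For each gene, the 3 genes with the most similar pattern over the 14 libraries, by Pearson r of log2 CPM with genotype means removed, were taken from 12632 genes with a mean of at least 1 CPM. As the highest of many values, these correlations are a description. *Lmnb1* was most like *Plk1*, *Ska3* and *Tpx2* (r = 0.98 each), which encode a mitotic kinase and 2 spindle proteins. *Glb1* was most like *Creg1* (0.96), a secreted glycoprotein found in lysosomes, *Fuca1* (0.95), the lysosomal fucosidase, and *Ctsd* (0.94), the protease cathepsin D. *Cdkn1a* was most like *Slc3a2* (0.94), the heavy chain of amino acid transporters, *Ptp4a2* (0.93), a tyrosine phosphatase, and *Phlda3* (0.93), a small inhibitor of Akt signalling. *Mdm2* was most like *Psrc1*, *Kansl1* and *Arid1b* (0.91 each), the last of which encodes a subunit of a chromatin remodeller. *Phlda3* and *Psrc1* are also on the list of p53 target genes. Whether the values for *Cdkn1a* and *Mdm2* rest on KO replicates 1 and 4, the extremes of these genes, was not tested. The low INK4 genes reached at most 0.90: *Cdkn2a* with *Pard6a* (0.86), *Cdkn2b* with *Gm13509* and *Sh3kbp1* (0.90 each) and *Cdkn2d* with *Ube2s*, *Gstt3* and *Arhgap33* (0.86 each). *Cdkn1b* was most like *Zfand6* (0.89), and *Trp53* like *U2af1l4* and *Mrpl53* (0.86 each).

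The genes around the 9 in their pathways were read from 10 lists, and no gene of any list was called in edgeR. None of the 16 other CDK inhibitors, cyclins and CDKs had an unadjusted p under 0.05 in the main edgeR fit, while *Ccnd1* did with the replicate block in edgeR and DESeq2. The median log2 fold change of the 16 was −0.026, with 4 above 0 and 12 below. Of these, *Cdk6*, the kinase held by INK4 proteins, was at 170 ± 11.7 CPM in KO and 175 ± 4.90 in WT (SD, n = 7 each). *Ccnd2*, which encodes cyclin D2, varied from 10.3 to 81.4 CPM over the 14 libraries (log2 fold change −0.35, standard error 0.408), and the value was 0.24 with the astrocyte marker level as a covariate. The 17 retinoblastoma and E2F genes had a median of 0.0074, and among them *E2f4*, a repressor E2F, was at 69.4 ± 1.99 CPM in KO and 67.3 ± 3.39 CPM in WT (SD, n = 7 each).

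In the p53 pathway, the 17 regulators and damage kinases had a median log2 fold change of 0.021, with *Mdm4*, the partner of MDM2, at 0.057 (standard error 0.0471) and *Ppm1d*, the phosphatase that shuts p53 signalling off, at 0.052 (standard error 0.0469). The 34 tested p53 targets had a median of 0.015, with 22 above 0 and 12 below. The split depended on the libraries, as 24 lay below 0 without KO replicate 4. The smallest p among the targets was that of *Apaf1*, which encodes the scaffold of the apoptosome (0.076, standard error 0.0423, adjusted p = 0.943). The DNA repair genes *Xpc* (0.046, standard error 0.0279) and *Ddb2* (0.15, standard error 0.0925) came next, and none of the 34 had an unadjusted p under 0.05. The 17 tested genes that control the *Cdkn2a* locus or p27 had a median of 0.039, with *Foxo3*, a factor that switches on p27, at 131 ± 7.75 CPM in KO and 125 ± 2.68 CPM in WT (SD, n = 7 each).

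The lamins and nuclear chromatin proteins, the list around *Lmnb1*, were the only list of the 10 with unadjusted p-values under 0.05 in the main edgeR fit. These were in 3 of 18 genes, all lower in KO (1.62% of all tested genes met this in that direction). Other fits gave such p-values to genes of other lists as well, such as *Hsp90aa1*, *Ccnd1* and *Kdm6b*. *Hmga1*, a chromatin protein of arrest-associated heterochromatin, was between 194 and 242 CPM in KO and between 231 and 249 in WT (log2 fold change −0.11, standard error 0.0414, adjusted p = 0.943). *Lmna*, which encodes the A-type lamins, was between 104 and 150 CPM in KO and between 124 and 155 in WT (−0.18, standard error 0.0786, adjusted p = 0.943), and *Cbx3*, which encodes heterochromatin protein HP1 gamma, was between 34.5 and 38.8 CPM in KO and between 35.2 and 42.7 in WT (−0.095, standard error 0.043, adjusted p = 0.943). None of these passed the adjustment, and the libraries overlapped for each. DESeq2 with the replicate block, which called 27 of 15139 genes (0.178%), called *Lmna* (−0.19, adjusted p = 0.0482), and the other fits did not. With the astrocyte marker level as a covariate, none of the 3 had an unadjusted p under 0.05, and *Lbr*, named here after its values were seen, was the gene of the list that did. *Cbx3* was also not among them in limma-voom, with the block or with the proliferation covariate. The list had 14 of 18 values below 0 and a median of −0.032.

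Each of the 33 proliferation genes had a log2 fold change below 0, with a median of −0.11, and none had an unadjusted p under 0.05 in the main edgeR fit. The count rested most on KO replicate 4. Without it 13 of 33 lay below 0, with a median of 0.013, and without KO replicate 3, WT replicate 4 or WT replicate 5 it was 23 to 24 of 33. Without KO replicates 1 and 4 it was 15 of 33. The smallest p was that of *Tk1*, the thymidine kinase of S phase, at 10.4 ± 5.06 CPM in KO and 12.5 ± 2.02 CPM in WT (SD, n = 7 each), with an adjusted p of 0.943. Its unadjusted p was under 0.05 in DESeq2 with the replicate block and in edgeR with the proliferation covariate. *Pcna*, the sliding clamp of DNA replication, was at 316 ± 30.9 CPM in KO and 327 ± 14.2 CPM in WT (SD, n = 7 each), so transcripts of this list were present in both genotypes.

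Among beta-galactosidase partners and genes of ganglioside breakdown, the smallest p-values were those of *Gm2a*, which encodes the activator of ganglioside GM2 breakdown (log2 fold change 0.064, standard error 0.0361, adjusted p = 0.943), and *Tfe3* (0.062, standard error 0.0361, adjusted p = 0.943). Of the 40 senescence-associated secreted factors, 33 could be tested and none had an unadjusted p under 0.05 in the main edgeR fit, with 19 values above 0 and 14 below. The split turned to 13 above and 20 below without KO replicate 4 or with the proliferation level as a covariate, and was 24 above and 9 below with the astrocyte marker level as a covariate. In other fits, unadjusted p-values under 0.05 were found for *Spp1* (edgeR with the replicate block) and for *Il1b*, *Plau* and *Timp1* (DESeq2 with the block). The same held for *Csf2* with no filter and for *Igfbp6* with the proliferation covariate. *Ccl5*, a chemokine of inflamed cells, was between 1.56 and 8.15 CPM in KO and between 1.53 and 3.74 in WT (log2 fold change 0.54, standard error 0.304), and *Ccl2* was between 4.11 and 8.00 CPM in KO and between 5.42 and 10.5 in WT (−0.28, standard error 0.156). *Timp1*, a relative of TIMP2, was between 0.148 and 1.57 CPM in KO and between 0.351 and 3.14 in WT (−0.95, standard error 0.583), and its log2 fold change was −0.22 with the astrocyte marker level as a covariate. The 15 survival genes of senescent cells had a median of −0.014, and their smallest p was that of the chaperone gene *Hsp90aa1* (−0.079, standard error 0.0383, adjusted p = 0.943). Its unadjusted p was under 0.05 in DESeq2 with and without the replicate block, and in edgeR with other scalings, no filter or the block.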

How the data were processed

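Primary microglia of 7 TIMP2 KO and 7 WT pools were sequenced. The deposited values are raw counts of reads per Ensembl gene, whole numbers that the authors left unnormalized, in a column for each library. The submitters' processing notes name Trimmomatic 0.36, STAR 2.5.2b, featureCounts, Subread 1.5.2, DESeq2 and GRCm38. The strand setting and the annotation release are not given in the sources used here. Positions and exon lengths came from the GENCODE annotation of GRCm38, which held 49056 of the 49315 gene identifiers.

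Genotype and replicate number came from the sample labels. Low genes were dropped by filterByExpr (at least 10 counts, 15 in total). edgeR 4.0.16 (R 4.3.3) fitted TMM-scaled counts, and its quasi-likelihood test was two-sided, with Benjamini-Hochberg adjustment over all 15700 tested genes and a threshold of 0.05. Standard errors and 95% intervals are from that fit. The authors modelled batch, but the labels do not give the batch of a library, so genotype stood alone. CPM use TMM-scaled library sizes, and log2 CPM a prior count of 1. Alternatives were DESeq2 1.42.0, limma-voom 3.58.1, other scalings, no filter, a replicate block, marker levels as covariates and leaving out each library. Correlations were computed in Python 3.11.15 with numpy 2.4.6, scipy 1.17.1 and pandas 2.3.3. The scripts were tested on simulated data.

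Named are the 9 genes and Timp2, the 3 genes with the smallest p of each pathway list, the 3 genes most like each of the 9, and the correlations that passed or had the 3 smallest p, and a part of these is printed. The genes and lists were chosen with earlier results of these data known. List genes named for an unadjusted p under 0.05 in other fits were chosen after their values were seen. Correlations other than those that passed or had the 3 smallest p were printed without a fixed rule. No set test was run. Of the 16 microglia markers, 6 are printed, chosen after their values were seen.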

Additional observations from a re-analysis of the deposited data

How the results depend on the processing

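Over 24 alternative settings, 1 of them chosen after seeing the data (without KO replicates 1 and 4), the number of the 9 genes called stayed at 0, their log2 fold changes lay between −0.21 and 0.084, and the lowest adjusted p was 0.684. The values near 0 changed sign in several settings, and the cause was not tested. With upper-quartile factors, *Cdkn1a* was at −0.0077, *Cdkn1b* at −0.0089, *Mdm2* at −1.3e-05 and *Glb1* at −0.0048, so that 8 of the 9 lay below 0 in place of 4. *Cdkn1a* was at −0.017 in limma-voom. With the astrocyte marker level as a covariate, *Cdkn1a* was at −0.034, *Cdkn2b* at 0.014, *Cdkn2d* at 0.0098, *Trp53* at −0.0025, *Mdm2* at −0.014 and *Ccnd2* at 0.24. With the proliferation level as a covariate, *Cdkn1a* was at −0.042, *Cdkn1b* at −0.0094 and *Mdm2* at −0.032. Without KO replicates 1 and 4, *Cdkn1a* was at −0.016, *Mdm2* at −0.018 and *Glb1* at −0.023. Leaving out 1 library at a time, the ranges that crossed 0 were −0.094 to 0.084 for *Cdkn1a*, −0.015 to 0.030 for *Cdkn1b*, −0.13 to 0.0091 for *Cdkn2b*, −0.082 to 0.0054 for *Cdkn2d*, −0.0067 to 0.028 for *Trp53*, −0.055 to 0.054 for *Mdm2* and −0.016 to 0.031 for *Glb1*. *Cdkn2a* stayed below 0, from −0.16 (without KO replicate 1) to −0.018 (without WT replicate 5), as did *Lmnb1*, from −0.21 (without KO replicate 7) to −0.070 (without WT replicate 4).

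Whether replicate numbers pair the samples was not settled. The correlation of deviations from the genotype means averaged 0.103 over same-numbered pairs and −0.0156 over other pairs. It was above 0.1 in 3 of 7 same-numbered pairs, with pair 5 at 0.743 and pair 2 at 0.392. Of the 7 KO libraries, 1 was closest to the WT library of its number. With the replicate block, *Cdkn1a* was at −0.016 in edgeR and −0.019 in DESeq2, and *Lmna* at −0.19 in DESeq2, its only call. Over all genes, 3 were called in edgeR, also with the block, 16 in DESeq2, 27 in DESeq2 with the block, and 3 to 4 when 1 library was left out. Of the correlations, 2 passed, 1 with upper-quartile factors, where *Cdkn2d* with *Mdm2* was −0.70 (adjusted p = 0.0516), and 1 to 4 when 1 library was left out: 4 without KO replicate 1 or WT replicate 4, and 1 without KO replicate 4, KO replicate 5 or WT replicate 7. The depth limits *Cdkn2a* and *Cdkn2b* most, at 57 to 116 reads per library.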
